A study of Mus musculus with 12 samples.

Results

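The genes described here are 37 components and regulators of macroautophagy, taken by name from a list. The study had picked Tmem59 and Ei24 from these tumors for its autophagy gene set, and the list was drawn up with earlier results of these data known. All 37 were found once among the 22630 genes of the deposited tables, and all 37 were among the 17561 genes tested. RNA was sequenced from 12 subcutaneous tumors grown from KCip53-1 cells, 4 in each of 3 groups named no-dox, plus-dox and off-dox. KCip53-1 is 1 line from a primary pancreatic tumor of a KCip53 mouse, whose alleles include Ptf1a-Cre, TREp53R270H and R26rtTa/rtTa. In this genotype the pancreatic Cre driver switches on the dox-dependent transactivator rtTa, and every group carries the same alleles. Dox, given in the drinking water, adds expression of the p53R270H transgene together with a dsRed reporter. The line was sorted for dsRed and cultured with dox, and the study's sequencing found that the tumor cells no longer had wild-type copies of p53. The hosts were NSG mice of 8 to 10 weeks, which lack mature lymphocytes but keep myeloid and stromal cells, and each flank tumor was started from 500000 cells. No-dox mice never received the drug. Plus-dox mice drank 0.2 g/l dox with 5% sucrose for 36 days. Off-dox mice drank the same solution for 33 days, followed by 3 days without it, as the labels have it. The text of the study instead places the withdrawal at the time when tumors could be felt, so the time off dox is uncertain. Whether no-dox water held sucrose is not given in the sources used here. Each mouse carried 2 tumors, but the labels do not tie tumors to mice. All tests take tumors as independent, and where 2 tumors of 1 group had the same host their p-values are too small.

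Macroautophagy encloses cytoplasm in a double membrane, the autophagosome, and delivers it to the lysosome for degradation and reuse. The ULK1 kinase complex starts the process, a class III PI3-kinase marks the membrane with phosphatidylinositol 3-phosphate, and WIPI, ATG2 and ATG9 proteins bring lipid to it. Enzymes that resemble the ubiquitin system then attach ATG8 proteins (LC3 and GABARAP) to the membrane, where cargo receptors bind them. Pancreatic ductal adenocarcinoma is known for high basal autophagy, with MiT/TFE transcription factors driving lysosomal and autophagy genes. Much of the pathway is controlled by phosphorylation, lipidation and degradation of its proteins, none of which is measured by RNA sequencing.

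The tumors had 19845923 to 33137609 gene-counted reads each. These were 88.4% to 89.4% of mapped reads for no-dox tumors, 82.2% to 87.1% for plus-dox tumors and 81.1% to 85.8% for the off-dox group, so this share separates the no-dox group from the other 8 tumors. No sequencing batch is given. Plus-dox tumor 2 and off-dox tumor 4 stand apart from the rest on the leading principal component of all genes, which holds 49.8% of the variance, with scores of 101.9 and 66.9 against 6.23 for the next tumor. Trp53, the RefSeq row that endogenous, host and transgene reads could all reach, had 47.7 ± 7.3 RPKM in no-dox tumors, 48.5 ± 6.4 in plus-dox tumors and 44.0 ± 1.7 in the off-dox group (SD, n = 4 each). RPKM is reads per exonic kilobase, scaled to the total of mapped reads. Its log2 fold change in plus-dox against no-dox was 0.036 (standard error 0.11, edgeR adjusted p = 0.89), so this row did not check the dox labels. All 10 epithelial markers were detected in every tumor, with Krt8, Krt18 and Epcam among them. Their summed RPKM ran from 2372 to 3271 in no-dox, from 1386 to 2131 in plus-dox and from 1127 to 2787 in off-dox tumors. The no-dox and plus-dox ranges do not overlap. Log2 fold changes were below 0 for 10 of 10 in plus-dox (median −0.65) and 9 of 10 in off-dox against no-dox (median −0.42). In each comparison 1 was lower at an unadjusted p under 0.05 and 0 reached an adjusted p under 0.1 by edgeR. RNA came from whole tumors, in which fewer cells of a type and less RNA per cell cannot be told apart. Summed skeletal muscle markers (10 of 10 detected in every tumor) ran from 15.9 to 219 RPKM in no-dox, from 173 to 539 in plus-dox and from 16.9 to 1471 in off-dox tumors. Summed adipocyte markers ran from 30.7 to 1135, from 35.5 to 718 and from 49.7 to 336 RPKM in the same order. Macrophage markers overlapped (812 to 1126, 839 to 1050 and 783 to 1315 RPKM), as did endothelial markers (36.7 to 51.1, 46.7 to 138.0 and 41.1 to 62.4). Summed fibroblast markers ran from 1209 to 2157 RPKM in no-dox, 1714 to 3229 in plus-dox and 1402 to 1623 in off-dox tumors, so the plus-dox and off-dox ranges do not overlap. All 10 had a log2 fold change below 0 in off-dox against plus-dox (median −0.52), 4 of them at an unadjusted p under 0.05 and 0 at an adjusted p under 0.1 by edgeR. In plus-dox against no-dox, 5 of 8 endothelial and 5 of 10 fibroblast markers were higher at that unadjusted level (8% of all genes). None was lower at that level, and the medians were 0.51 and 0.54. In off-dox against no-dox, 7 of 10 skeletal muscle markers were higher at that level (10.9% of all genes) and 0 lower, with a median of 2.82. None of these reached an adjusted p under 0.1. Summed neutrophil markers ran from 23.2 to 35.0 RPKM in no-dox, from 33.7 to 57.0 in plus-dox and from 23.7 to 49.5 in off-dox tumors. In off-dox against no-dox, 2 of the 5 neutrophil markers, Csf3r and Cxcr2, passed the test (edgeR adjusted p = 0.083 for both), a level reached by 3.46% of all genes and by none once any of 7 single tumors was left out. No marker found was at 0 in every tumor, and 1 neutrophil marker was at 0 in at least 1. The part of these cell types in the values below was not tested.

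All 37 autophagy genes were expressed in all 12 tumors. Mean RPKM over the tumors was over 100 for 5 genes (Gabarap, Tmem59, Sqstm1, Map1lc3b and Gabarapl2), between 20 and 100 for 9, between 10 and 20 for 11 and under 10 for 12. Atg4c, a protease for ATG8 proteins, was the lowest at 3.38 RPKM, with 222 to 441 reads per tumor. The fewest reads behind any single value were 164, for Atg16l2. The same 6 genes were highest in 11 of the 12 tumors. The order of the 37 levels was much alike from tumor to tumor, with a Spearman rho across the genes of at least 0.95 in all 66 pairs of tumors (median 0.98, against 0.97 over all genes with a mean RPKM over 0.25). Genes are not replicates, and these values carry no test. Within groups, the median SD of log2 CPM (counts scaled to library size with TMM factors) was 0.16 for the 37 genes and 0.25 for all 14548 genes over that RPKM. Among genes with a mean over 5 RPKM the same medians were 0.16 and 0.20.

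**Figure D1:**
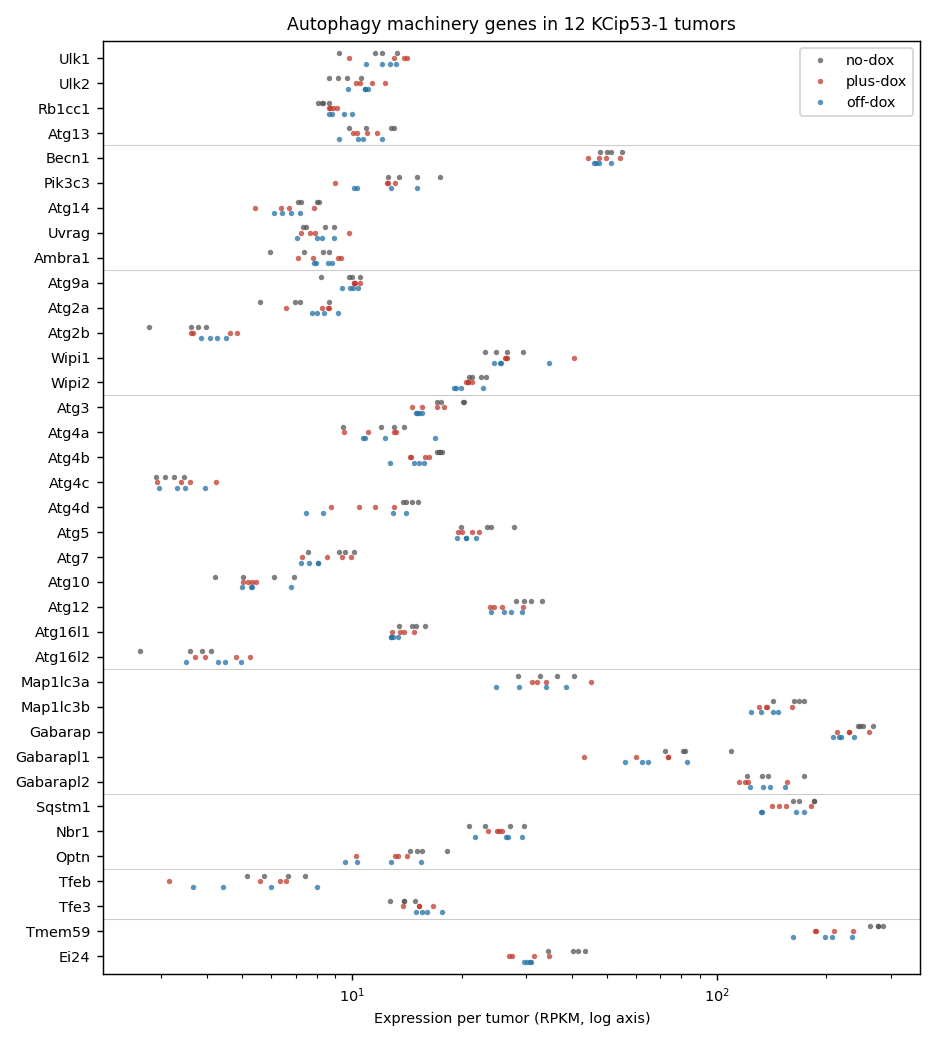
Expression of the 37 autophagy genes (rows, ordered by role, grey lines between roles) in RPKM on a log axis, with 1 point per tumor and 4 tumors per group. Levels span from 3.38 RPKM for Atg4c to 236 for Gabarap on average, and in most rows the points of the 3 groups overlap.

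Fitted differences between groups were under 1.5-fold for all 37 genes in the 3 comparisons. By the limits of the study (adjusted p under 0.1, over 1.5-fold, mean RPKM over 0.25 and length over 250 bp), edgeR called 0 of 37 in plus-dox against no-dox, where 0% of all genes were called. In off-dox against no-dox it called 0 of 37, where 1.34% of all genes were called (181 higher and 54 lower). In off-dox against plus-dox it also called 0 of 37, against 0% of all genes. With so few calls over all genes, these counts say nothing particular to the autophagy genes. Without the fold and RPKM limits, an adjusted p under 0.1 was reached by 0, 1 and 0 of the 37 in the same order, against 0%, 3.46% and 0% of all genes. The single gene was Ei24, lower in off-dox tumors. DESeq2 with moderated fold changes, close to the test of the authors, gave an adjusted p under 0.1 to Tmem59 and Ei24 in plus-dox against no-dox and to these and Atg3 in off-dox against no-dox. Under limma-voom with tumor weights it was Ulk2 and Ei24 in the former and Atg3, Tmem59, Atg4d and Ei24 in the latter. Of all 17561 genes tested, 234 and 1882 reached that level by this DESeq2 fit in the same order. By limma-voom it was 502 and 2390, so these members are no result particular to the autophagy genes. None of the changes of the named genes reached 1.5-fold, and neither tool called any of the 37 by the full limits. In off-dox against plus-dox neither gave any of the 37 an adjusted p under 0.1.

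The sizes can be bounded. The log2 fold changes of the 37 genes lay between −0.45 and 0.32 in plus-dox against no-dox, between −0.43 and 0.31 in off-dox against no-dox and between −0.16 and 0.15 in off-dox against plus-dox, with a median standard error of 0.12 in each. The 95% interval lay wholly within 1.5-fold in either direction for 28 of 37 in plus-dox against no-dox, against 41.3% of all genes. The same held for 30 of 37 in off-dox against no-dox (36.8% of all genes) and for 36 of 37 in off-dox against plus-dox (48.5%), with Tfeb as the exception. Such intervals narrow with the number of reads, and all 37 genes had at least 164 in every tumor. The median log2 fold change of the 37 was −0.078, −0.11 and −0.0092 in the 3 comparisons, and that of all genes 0.013, 0.0072 and −0.00051. Without Tmem59 and Ei24 the medians were −0.070, −0.089 and −0.011. Values were below 0 for 24 of 37 in plus-dox against no-dox (48.6% of all genes), 22 of 37 in off-dox against no-dox (49.3%) and 20 of 37 in off-dox against plus-dox (50.1%).

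At an unadjusted p under 0.05 stood 6 of 37 genes in plus-dox against no-dox, against 13.7% of all genes. Only Ulk2 was higher, where 8% of all genes were, and 5 were lower (Atg3, Atg12, Gabarapl1, Tmem59 and Ei24), where 5.67% of all genes were. In off-dox against no-dox it was 8 of 37, against 20.4% of all genes. Rb1cc1 and Tfe3 were higher (10.9% of all genes), and Atg3, Atg4b, Atg4d, Optn, Tmem59 and Ei24 were lower (9.48%). In off-dox against plus-dox it was 0 of 37, against 3.06% of all genes. Leaving aside Tmem59 and Ei24, 1 of 35 genes was higher and 3 of 35 were lower in plus-dox against no-dox, and 2 of 35 were higher and 4 of 35 lower in off-dox against no-dox. Plus-dox and off-dox were set against the same 4 no-dox tumors, so genes named in both comparisons are not 2 separate observations.

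Groups were also compared tumor by tumor. Log2 CPM of the 4 plus-dox tumors did not overlap that of the 4 no-dox tumors for 4 of 37 genes, against 8.86% of all genes. None was higher (4.37% of all genes) and Atg4b, Atg4d, Optn and Tmem59 were lower (4.49%). The off-dox group was clear of the no-dox group for 7 of 37 genes, against 11.5% of all genes. Of these, Atg2b and Tfe3 were higher (5.85%) and Atg3, Atg4b, Atg16l1, Tmem59 and Ei24 were lower (5.69%). Off-dox and plus-dox tumors overlapped for all 37, where 1.4% of all genes did not.

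**Figure D2:**
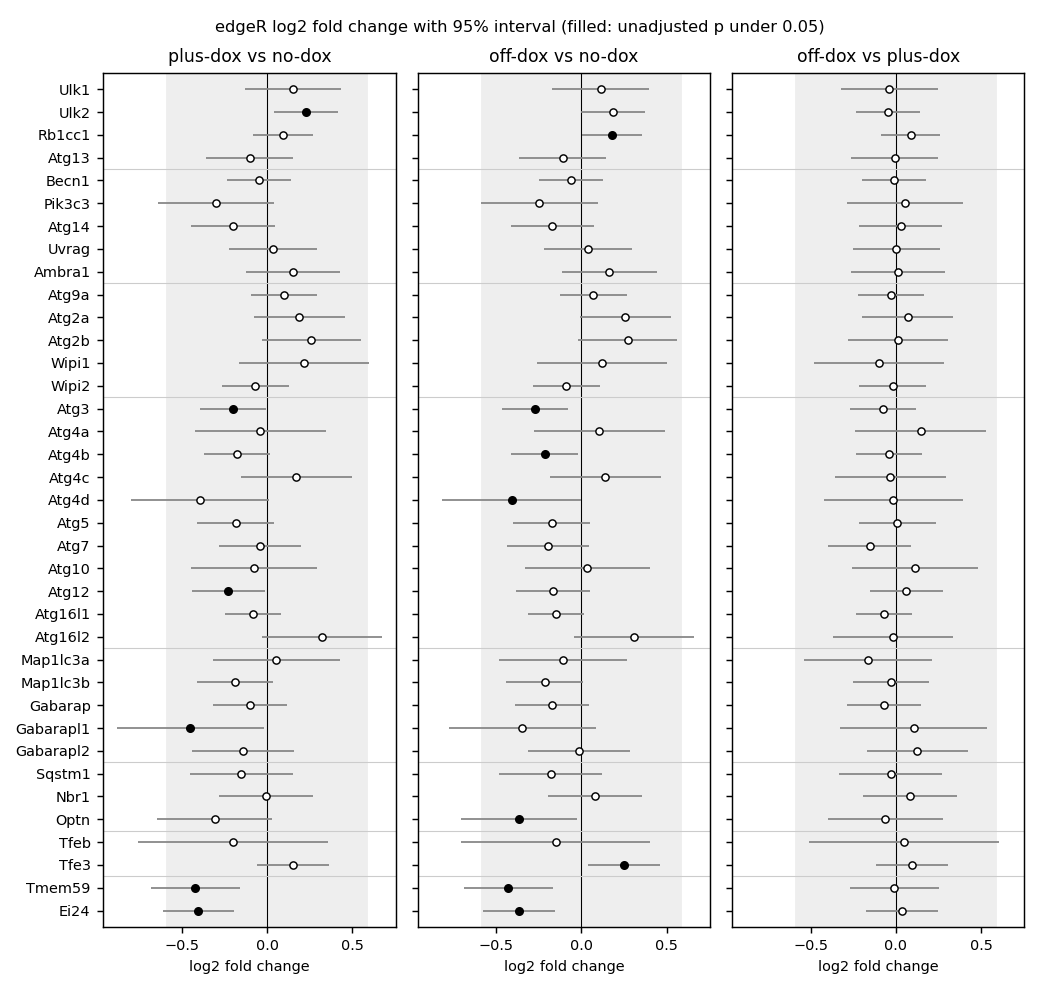
Log2 fold changes of the 37 genes with 95% intervals from the edgeR fit of 12 tumors, in 3 panels for the 3 comparisons, with filled points at an unadjusted p under 0.05 and the range within 1.5-fold shaded. The points of off-dox against plus-dox lie between −0.16 and 0.15, and those of the comparisons with no-dox tumors between −0.45 and 0.32.

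Tmem59 and Ei24 had the smallest p-values. Since the study had picked both on these tumors, their direction is no independent evidence. Tmem59 (chromosome 4 of mm9, 106851235 to 106873601), a transmembrane protein of endosomes that can recruit ATG16L1, had 264, 286, 276 and 276 RPKM in no-dox tumors 1 to 4. It had 237, 186, 187 and 210 RPKM in plus-dox and 235, 207, 162 and 198 in off-dox tumors 1 to 4. Every no-dox tumor lay above all 8 tumors that had received dox, which overlapped one another. Its log2 fold change was −0.42 in plus-dox against no-dox (standard error 0.12, edgeR adjusted p = 0.32) and −0.43 in off-dox against no-dox (0.12, adjusted p = 0.102). In off-dox against plus-dox it was −0.0092 (95% interval −0.27 to 0.25). The adjusted p in off-dox against no-dox was 0.095 without plus-dox tumor 2, 0.051 without off-dox tumor 1 and 0.0996 without both tumors that stand apart. With any 1 of the other 10 tumors left out it was between 0.107 and 0.231. With the share of reads on genes as a covariate, the log2 fold changes of Tmem59 were −0.19 and −0.12 against no-dox. That share separates the no-dox tumors from the others, so it and the treatment cannot be told apart.

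Ei24 (chromosome 9, 36586738 to 36604978), an endoplasmic reticulum protein needed for autophagosome maturation and known as a p53-induced gene, had 43.5, 34.5, 40.3 and 41.7 RPKM in no-dox tumors 1 to 4. It had 34.7, 27.5, 26.9 and 31.6 RPKM in plus-dox tumors and 31.0, 30.2, 30.7 and 29.7 in off-dox tumors. No-dox tumors lay above all off-dox tumors, and plus-dox tumor 1 reached the lowest no-dox value. Its level fell by 0.37 on the log2 scale in off-dox against no-dox (standard error 0.10, edgeR adjusted p = 0.093). In plus-dox against no-dox the log2 fold change was −0.40 (0.10, adjusted p = 0.32) and in off-dox against plus-dox 0.035 (95% interval −0.18 to 0.25). The call of Ei24 in off-dox against no-dox was lost with single tumors left out, though its adjusted p also depends on all other genes tested. The unadjusted edgeR p of Ei24 in that comparison was 0.0025 with all tumors. With 1 tumor left out it ran from 0.00033 (no-dox tumor 2) to 0.0087 (no-dox tumor 4). In plus-dox against no-dox the unadjusted edgeR p was 0.0013. In off-dox against no-dox its adjusted p was 0.199, 0.162, 0.180 and 0.154 without no-dox tumors 1 to 4. It was 0.119 and 0.137 without plus-dox tumors 3 and 4, and 0.226, 0.212 and 0.121 without off-dox tumors 2 to 4. The log2 fold change itself stayed between −0.44 and −0.33 with any 1 tumor left out. With the share of reads on genes as a covariate, it was −0.34 in plus-dox and −0.28 in off-dox against no-dox.

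The ULK1 initiation complex is represented by the kinases Ulk1 and Ulk2, the scaffold Rb1cc1 (FIP200) and the adaptor Atg13, at mean levels between 8.79 and 12.2 RPKM. Ulk1 (chromosome 5, 111213508 to 111239100) had 11.6, 12.1, 9.18 and 13.2 RPKM in no-dox tumors, 14.1, 9.81, 13.1 and 13.9 in plus-dox tumors and 13.2, 12.1, 12.7 and 10.9 in the off-dox group. The groups overlap, with the lowest values in no-dox tumor 3 and plus-dox tumor 2. Ulk2 had a log2 fold change of 0.23 in plus-dox against no-dox (standard error 0.09, edgeR adjusted p = 0.33) and 0.19 in off-dox against no-dox. Rb1cc1 had 0.09 and 0.18 (adjusted p = 0.59 and 0.24), and Atg13 −0.10 and −0.11. None of the 4 passed the edgeR test in any comparison, and Ulk2 had an adjusted p of 0.095 by limma-voom in plus-dox against no-dox. In that comparison limma-voom gave an adjusted p under 0.1 to 502 of the 17561 genes tested. With the share of reads on genes as a covariate, the log2 fold change of Rb1cc1 in off-dox against no-dox was 0.10.

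The class III PI3-kinase complexes are the lipid kinase Pik3c3 (VPS34), its partner Becn1, the subunits Atg14 and Uvrag that send it to autophagosomes or endosomes, and the Becn1-binding regulator Ambra1. Becn1 (chromosome 11, 101150016 to 101163581) was the most expressed, with 54.9, 50.0, 51.3 and 48.0 RPKM in no-dox tumors, 49.8, 54.4, 44.3 and 47.4 in plus-dox tumors and 46.7, 47.6, 46.1 and 51.3 in the off-dox group. These levels overlap throughout, and the 95% interval of the log2 fold change was −0.24 to 0.14 in plus-dox and −0.25 to 0.13 in off-dox against no-dox. Its mean of 49.3 RPKM stood well above its partners, with Pik3c3 at 12.8, Atg14 at 6.95, Uvrag at 8.09 and Ambra1 at 8.08 RPKM. Pik3c3 had the largest difference of the group, with a log2 fold change of −0.30 in plus-dox and −0.25 in off-dox against no-dox (standard error 0.16 for both, adjusted p = 0.41 and 0.39). None of the 5 had an unadjusted p under 0.05.

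Among the proteins that supply lipid, Atg9a is a scramblase carried on vesicles, Atg2a and Atg2b transfer lipid, and Wipi1 and Wipi2 bind phosphatidylinositol 3-phosphate. Wipi1 (chromosome 11, 109434835 to 109472703) had 26.6, 24.8, 29.4 and 23.1 RPKM in no-dox tumors, 26.6, 40.6, 26.5 and 26.2 in plus-dox tumors and 25.6, 24.5, 25.5 and 34.7 in the off-dox group. The highest values belong to plus-dox tumor 2 and off-dox tumor 4, the tumors that stand apart over all genes. Atg2b was the longest of the 37 genes, with 10173 bp of exon, and had 3.54 ± 0.52 RPKM in no-dox tumors, 4.18 ± 0.64 in plus-dox tumors and 4.17 ± 0.28 in the off-dox group (SD, n = 4 each). In log2 fold change Atg2b was at 0.26 in plus-dox and 0.27 in off-dox against no-dox (standard error 0.13 for both, adjusted p = 0.41 and 0.28). Atg2a had 0.19 and 0.26, Atg9a 0.10 and 0.07, and Wipi2 −0.07 and −0.09, and none of the 5 had an unadjusted p under 0.05.

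The conjugation system is the largest group, with 11 genes. Atg7 activates both ubiquitin-like proteins, Atg10 and Atg3 hand on ATG12 and ATG8, Atg12, Atg5 and Atg16l1 form the ligase, Atg16l2 is a relative of Atg16l1, and Atg4a to Atg4d are proteases that process ATG8 proteins. Log2 fold changes were below 0 for 9 of the 11 in plus-dox and 7 of the 11 in off-dox against no-dox, and 0 of the 11 reached an adjusted p under 0.1 by edgeR. In off-dox against no-dox, Atg3 reached it by DESeq2 with moderated fold changes (0.056) and limma-voom (0.067), and Atg4d by limma-voom (0.099). Of the 17561 genes tested, 1882 reached it by that DESeq2 fit and 2390 by limma-voom. Atg3 (chromosome 16, 45158942 to 45188651) had 20.2, 17.6, 20.2 and 17.1 RPKM in no-dox tumors, 17.8, 15.5, 14.6 and 17.1 in plus-dox tumors and 15.0, 15.2, 15.1 and 15.6 in the off-dox group. The 4 off-dox tumors all lie below the no-dox tumors, and the plus-dox tumors overlap both. The log2 fold change of Atg3 was −0.20 in plus-dox and −0.28 in off-dox against no-dox (standard error 0.09 for both, edgeR adjusted p = 0.35 and 0.13).

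Atg12 (chromosome 18, 46892071 to 46901233), the most expressed of the conjugation genes, had 29.5, 28.2, 33.1 and 30.9 RPKM in no-dox tumors, 29.4, 25.8, 23.9 and 24.5 in plus-dox tumors and 29.2, 27.2, 24.0 and 26.0 in the off-dox group. Tumor 1 of both dox groups reached into the no-dox range. Its log2 fold change was −0.23 in plus-dox and −0.17 in off-dox against no-dox (standard error 0.10 for both, edgeR adjusted p = 0.35 and 0.36), and the former was −0.047 with the share of reads on genes as a covariate. Atg4b, the protease with the broadest activity on ATG8 proteins, had 17.4 ± 0.22 RPKM in no-dox tumors, 15.3 ± 0.91 in plus-dox tumors and 14.6 ± 1.3 in the off-dox group (SD, n = 4 each). All 4 no-dox tumors lay above the other 8, with log2 fold changes of −0.18 and −0.22 (adjusted p = 0.40 and 0.20). With the share of reads on genes as a covariate, the latter was −0.0075. Atg4d had 14.4 ± 0.60, 10.9 ± 1.8 and 10.7 ± 3.3 RPKM, with off-dox tumor 1 at 14.0 inside the no-dox range, and log2 fold changes of −0.39 and −0.41 (adjusted p = 0.38 and 0.24). The latter was −0.27 without off-dox tumor 2 and −0.24 with that covariate. Of the others, Atg5 had log2 fold changes of −0.18 in both comparisons with no-dox, Atg7 −0.04 and −0.20, and Atg16l1 −0.08 and −0.15. Atg16l2 had the highest values of the 37, at 0.32 and 0.31 (standard error 0.16, adjusted p = 0.39 and 0.30), from levels of only 2.63 to 5.24 RPKM.

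The ATG8 family held 3 of the 5 most expressed genes. Gabarap (chromosome 11, 69804872 to 69808451) was the highest of the family in 12 of 12 tumors, with 252, 244, 268 and 247 RPKM in no-dox tumors, 231, 261, 230 and 213 in plus-dox tumors and 238, 208, 219 and 216 in the off-dox group. The 4 off-dox values lie below the no-dox values in RPKM, while in log2 CPM with TMM factors the groups overlap, and the log2 fold change was −0.17 (95% interval −0.39 to 0.05). Map1lc3b, the LC3 gene used as the standard autophagosome marker, followed in 9 tumors and Gabarapl2 in the other 3. On average Gabarap took 37.5%, 39.0% and 37.2% of the summed RPKM of the family in no-dox, plus-dox and off-dox tumors, and Map1lc3b 23.9%, 23.5% and 23.0%. For Gabarap these means differed by less than single tumors did, which ran from 35.3% to 42.9%. Summed, the 5 genes reached 677 ± 52 RPKM in no-dox tumors, 601 ± 42 in plus-dox tumors and 593 ± 41 in the off-dox group (SD, n = 4 each), with overlapping ranges. Gabarapl1 had the lowest log2 fold change of the 37 in plus-dox against no-dox, −0.45 (standard error 0.20, adjusted p = 0.35), and −0.35 in off-dox against no-dox. Its levels were 81.6, 72.0, 80.7 and 110 RPKM in no-dox tumors, 73.7, 43.3, 73.5 and 60.0 in plus-dox tumors and 83.1, 62.3, 56.0 and 64.6 in the off-dox group. The difference leans on no-dox tumor 4 and plus-dox tumor 2, at the ends of the range, and was −0.29 on the log2 scale without the former and −0.31 without the latter. Map1lc3a was the lowest of the family in 11 of 12 tumors, at 33.9 RPKM on average. How the authors counted reads that map to several places is not stated, so levels of genes with processed copies, frequent in this family, are uncertain.

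The cargo receptors Sqstm1 (p62), Nbr1 and Optn link ubiquitinated cargo to ATG8 proteins. Sqstm1 (chromosome 11, 50013654 to 50024292) had 168, 162, 185 and 185 RPKM in no-dox tumors, 148, 181, 155 and 142 in plus-dox tumors and 165, 133, 133 and 174 in the off-dox group. The ranges overlap, and the log2 fold change was −0.15 in plus-dox (95% interval −0.45 to 0.15) and −0.18 in off-dox against no-dox (−0.48 to 0.12). Nbr1 had log2 fold changes of −0.0048 and 0.08. Optn, also a receptor for damaged mitochondria, had 15.8 ± 1.7 RPKM in no-dox tumors, 12.7 ± 1.7 in plus-dox tumors and 12.0 ± 2.7 in the off-dox group. Its log2 fold change was −0.31 and −0.37 (standard error 0.16 for both, edgeR adjusted p = 0.40 and 0.21), with off-dox tumor 2 at 15.5 RPKM inside the no-dox range.

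Of the MiT/TFE factors, Tfe3 (chromosome X, 7339787 to 7352328) was more expressed than Tfeb. Tfe3 had 13.9, 14.9, 12.7 and 13.9 RPKM in no-dox tumors, 13.8, 16.7, 15.2 and 15.3 in plus-dox tumors and 15.6, 14.9, 16.1 and 17.7 in the off-dox group. The off-dox tumors lie above the no-dox tumors, the lowest of them by a small margin, with log2 fold changes of 0.15 in plus-dox and 0.25 in off-dox against no-dox (standard error 0.10 for both, edgeR adjusted p = 0.48 and 0.19). Tfeb was the most variable of the 37 genes, with a SD of log2 CPM of 0.38 over the 12 tumors. Its levels ran from 3.15 RPKM in plus-dox tumor 2 to 8.03 in off-dox tumor 1, and its log2 fold changes were −0.20 and −0.15 (standard error 0.26 for both).

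Promoter sequence was looked at for the CACGTG hexamer, the core of the motif to which MiT/TFE factors bind, read on either strand of the window from 250 bases before to 50 after the RefSeq start site (build GRCm38.p6, not the build of the files). Where a gene had more than 1 window, a match in any of them counted. Of the 37 genes, 31 had a window, and 4 of the 31 held the hexamer (12.9%, against 8.09% of 27025 genes), namely Atg3, Atg5, Atg7 and Atg14. The longer palindrome TCACGTGA, which contains it, was in Atg3 alone (1.12% of all genes). The stretches of 3 conjugation genes are shown for the position of the motif, with the matching letters in capitals, all on the plus strand. They lie at chr6:114670952-114670981 for Atg7, chr10:44268309-44268338 for Atg5, and chr16:45158723-45158752 and chr16:45158746-45158775 for the first and second stretch of Atg3, which overlap at their ends. The motifs start 132 bases before the start site of the matching window in Atg7, 14 in Atg5, and 94 and 71 in Atg3.
Atg7: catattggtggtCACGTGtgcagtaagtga
Atg5: agggcggagcgcttgcCACGTGgtcttggt
Atg3, first: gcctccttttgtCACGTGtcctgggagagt
Atg3, second: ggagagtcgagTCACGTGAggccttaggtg
A match describes these letters only, and the data hold no measure of binding.

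**Figure D3:**
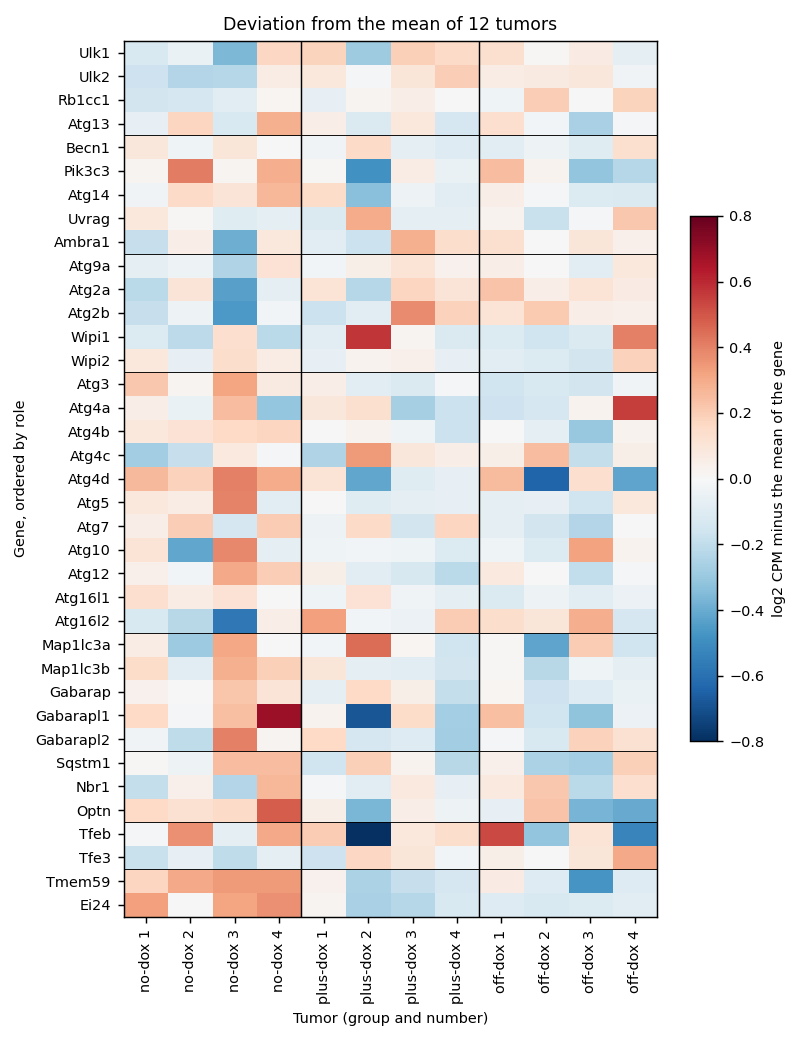
Log2 CPM of each of the 37 genes (rows, ordered by role) in each of the 12 tumors (columns, by group), as the difference from the mean of the gene over the tumors. Tmem59 and Ei24 show their highest values among the no-dox tumors, while the strongest colors elsewhere belong to single tumors, such as Wipi1 in plus-dox tumor 2 and off-dox tumor 4.

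The tumors that stand apart over all genes, plus-dox tumor 2 and off-dox tumor 4, were compared with the rest in log2 CPM. Both lay above every other tumor for Becn1, Uvrag, Wipi1 and Tfe3 (10.8% of the 37, against 10.6% of 14548 genes). Both lay below every other tumor for Atg14 and Tfeb (5.41%, against 14.5% of the same genes). Without both, 0 of 37 genes were called by the limits of the study in any comparison, and the medians were −0.093, −0.11 and −0.015.

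Log2 fold changes against no-dox were higher for longer genes. Across the 37 genes, the log2 fold change and exonic length had a Spearman rho of 0.48 in plus-dox and 0.52 in off-dox against no-dox, against 0.24 and 0.25 over 14548 genes. In off-dox against plus-dox it was 0.12 and 0.10. The 18 genes longer than the median of 2827 bp had a median log2 fold change of 0.063 and 0.074 in the comparisons with no-dox, and the other 19 had −0.18 and −0.17. The same split of the 14548 genes gave 0.068 and 0.084 for the longer and −0.090 and −0.11 for the shorter genes. Among the 37, longer genes include Atg2b, Rb1cc1, Ulk2 and Atg2a, and shorter genes Tmem59, Gabarapl1, Atg4d, Atg3 and Ei24. Length, level and role therefore run together in this pathway. The rho with mean RPKM was −0.47 and −0.51 in the same comparisons, against −0.30 and −0.29 over all genes. These are descriptions over genes measured in the same libraries. With the share of reads on genes as a covariate, the median of the 37 was −0.0081 and −0.0075 against no-dox, and share and treatment cannot be told apart.

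**Figure D4:**
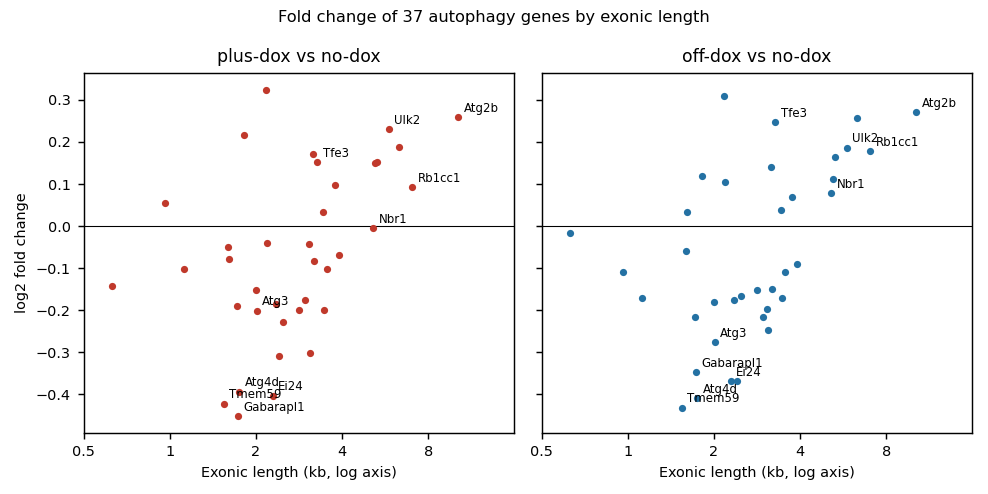
Log2 fold change against exonic length (kilobases, log axis) for the 37 genes, 1 point per gene, in plus-dox (left) and off-dox (right) against no-dox. Values below −0.3 belong to genes shorter than 4 kb, and those of the 18 longer genes have a median of 0.063 and 0.074. Over all genes longer than the same limit the medians are 0.068 and 0.084.

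Other genes of the pathway were taken from 5 lists. In off-dox against no-dox, an adjusted p under 0.1 was reached by 0 of 23 further core and fusion genes, 1 of 16 further selective autophagy receptors, 0 of 39 lysosomal genes, 1 of 23 regulators of the mTORC1, AMPK and FOXO branches and 0 of 8 p53-linked autophagy regulators, against 3.46% of all genes. Wdfy3, a large adaptor for protein aggregates, rose from 6.49 ± 0.79 to 8.92 ± 0.80 RPKM, by 0.49 on the log2 scale (standard error 0.12, edgeR adjusted p = 0.087). Tsc1, part of the complex that restrains mTORC1, rose from 4.98 ± 0.67 to 6.31 ± 0.34 RPKM, by 0.37 (0.09, edgeR adjusted p = 0.090). Over all genes, none reached an adjusted p under 0.1 once any 1 of 7 tumors was left out. These were no-dox tumors 1, 2 and 4, off-dox tumors 2 to 4 and plus-dox tumor 4. Both calls are lost without any 1 of these tumors, and the adjustment is over all genes tested. In plus-dox against no-dox and in off-dox against plus-dox, 0 genes of the 5 lists reached that level by edgeR. At an unadjusted p under 0.05 there were 2 higher core and fusion genes, 1 higher and 2 lower receptors, 2 lower lysosomal genes and 3 higher and 1 lower mTORC1, AMPK and FOXO regulators in the former comparison, where 8% of all genes were higher and 5.67% lower, and 0 genes of these lists in the latter. Log2 fold changes were below 0 for 31 of 39 lysosomal genes in off-dox and 26 of 39 in plus-dox against no-dox, with medians of −0.10 and −0.07, beside medians of 0.0072 and 0.013 over all genes. The mTORC1, AMPK and FOXO regulators had medians of 0.12 and 0.09, and the core and fusion genes 0.011 and 0.0071. For the further receptors the medians were −0.13 and −0.15, with 10 and 13 of 16 below 0. For the p53-linked regulators they were 0.092 and 0.0011. An unadjusted p under 0.05 in off-dox against no-dox was found for 5 higher and 3 lower core and fusion genes, 1 higher and 2 lower receptors, 0 higher and 3 lower lysosomal genes, 7 higher and 2 lower mTORC1, AMPK and FOXO regulators, and 0 higher and 1 lower p53-linked regulator. Over all genes, 10.9% were higher and 9.48% lower at that level.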

How the data were processed

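PolyA+ RNA of 12 whole tumors was sequenced without strand information. Single-end reads of 50 bp were mapped by the authors to mm9 with TopHat 1.4.1 (the submitters' processing notes also name Bowtie 0.12.8, bedtools 2.16.2 and CASAVA 1.8.2) and counted over unambiguous exonic spans of condensed RefSeq genes. The deposited expected counts are base-wise coverage in reads, not normalized and not all whole. The deposited RPKM values are scaled by the authors to exonic length and total mapped reads. The handling of duplicates and of reads with several positions is not given in the sources used here.

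Counts were rounded to whole numbers. The 17561 genes whose counts summed to 10 or more were fitted with edgeR 4.0.16 (R 4.3.3, TMM, quasi-likelihood test, 3 groups, no covariate), with Benjamini-Hochberg adjustment over all of them. The call limits are those of the study. Log2 CPM used a prior count of 2. Duplicated gene names (75 rows) hold none of the 37 genes. Gene-counted reads numbered between 19845923 and 33137609 per tumor. Intervals are 95% intervals of the fit. Nothing shows that same-group tumors came from separate mice, so p-values measure the spread between these tumors. Replicate libraries differed beyond sampling noise. The scripts were tested on simulated data.

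Alternatives were DESeq2 1.42.0 with and without moderated fold changes, limma 3.58.1 (voom with sample weights), RLE normalization, 2 other count filters, the 8 tumors of a pair alone, a replicate block, 2 other call limits, the share of reads on genes as covariate, the 2 tumors that stand apart left out, and each tumor left out in turn. The 37 genes, the marker lists and the pathway lists were chosen with earlier results of these data known. Values per tumor are given for Tmem59, Ei24, the most expressed gene of each role and genes with an unadjusted p under 0.01. Genes with an unadjusted p under 0.05 are named with their log2 fold change. Gabarapl1 was given per tumor after its values were seen. Promoter windows are RefSeq sequence of GRCm38.p6. Part of the genotype of the line is not reported here.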

Additional observations from a re-analysis of the deposited data

Results flagged for a closer look

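Of the 111 sets of 4 tumors (37 genes in 3 groups), 5 held a tumor far from the other 3 in RPKM by Dixon's test. Chance gives about 1 in 20, so the number of such sets is near that share. Pik3c3, the lipid kinase VPS34, had 8.97 RPKM in plus-dox tumor 2, with the others of the group between 12.5 and 13.1. Atg2a had 6.58 RPKM in the same tumor, with the others between 8.29 and 8.62. Wipi1 had 40.6 RPKM in plus-dox tumor 2 (others 26.2 to 26.6) and 34.7 in off-dox tumor 4 (others 24.5 to 25.6). These are the tumors that stand apart over all genes. Gabarapl2 had 155.5 RPKM in plus-dox tumor 1, with the others between 115 and 122.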

How the results depend on the processing

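The number of the 37 genes called by the limits of the study was 0 in all 3 comparisons under every alternative except 1. With an adjusted p under 0.1 and no fold limit it was 1 (Ei24) in off-dox against no-dox. With any 1 tumor left out, the count was 0 to 0 in each comparison. The median log2 fold change of the 37 then ran from −0.098 to −0.055 in plus-dox against no-dox, from −0.14 to −0.058 in off-dox against no-dox and from −0.032 to 0.021 in off-dox against plus-dox. With the share of reads on genes as covariate, the medians in the comparisons with no-dox were −0.0081 and −0.0075. The cause was not tested. Single genes moved unequally with that covariate. In plus-dox against no-dox, log2 fold changes with it were −0.36 for Gabarapl1, −0.16 for Atg3 and 0.18 for Ulk2. In off-dox against no-dox they were −0.22 for Atg3, −0.44 for Optn and 0.21 for Tfe3. Values for Tmem59, Ei24, Rb1cc1, Atg12, Atg4b and Atg4d are given above. By edgeR, 0 of all genes had an adjusted p under 0.1 with the covariate. Of 22 alternatives for Ei24 in off-dox against no-dox, 13 gave an adjusted p over 0.1. For the other named genes none changed sign. Calls over all genes moved far more. In off-dox against no-dox, 235 genes became 396 and 615 with DESeq2 with and without moderation, 641 with limma-voom, 122 without a filter, 365 with at least 10 counts in every tumor, 3 with the 8 tumors alone, 473 without the 2 tumors that stand apart, 584 without the fold limit, 0 with the covariate, 0 at an adjusted p under 0.05 and 0 to 786 with 1 tumor left out (786 without off-dox tumor 1). In plus-dox against no-dox, 0 genes became 90 and 128 with DESeq2, 112 with limma-voom and 3 without plus-dox tumor 1, and in off-dox against plus-dox 4 and 6 with DESeq2 and 1 without off-dox tumor 1.

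Tumors of the same number did not deviate together (correlation from −0.45 to 0.57 over 12 pairs, mean −0.088, against 0.043 over 36 other pairs), and 0 tumors matched best with their own number, so the numbers pair nothing known. With the replicate block, 0 of the 37 and 0 of all genes were called in each comparison, and the medians were −0.068, −0.11 and −0.011. Depth limits Atg16l2, Atg10 and Atg4c most, with as few as 164, 194 and 222 reads in a tumor.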
